A study of Mus musculus with 4 samples.

Results

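The loci of 9 effector helper cytokine genes (Ifng, Il4, Il5, Il13, Il17a, Il17f, Il21, Il22 and Csf2) were examined in ChIP-seq peak lists of activated regulatory T (Treg) cells. A peak was taken as a member when its centre lay within 50 kb of any annotated transcription start site (TSS) of these genes, and a peak near several of them was counted once. This gave 139 peaks of the 103355 in all lists, namely 31 JunB peaks of 29659, 17 BATF peaks of 13570, 41 IRF4 peaks of 31093 in Junb-sufficient cells and 50 IRF4 peaks of 29033 in Junb-deficient cells. The 9 genes were taken from 22238 protein-coding genes and fall into 6 loci spanning 757 kb, because Il17a with Il17f, and Il4 with Il13 and Il5, have overlapping windows.

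CD4+CD25+ Treg cells from spleens of C57BL/6 mice were cultured for 60 h with IL-2 and activating antibodies to CD3 and to CD28. Junb-sufficient cells gave libraries for JunB, BATF and IRF4, and Junb-deficient cells for IRF4 alone, with 1 library for each, so that no test between genotypes was possible. The sample labels name the genotypes Foxp3cre JUNB+/+ and Foxp3cre JUNBFl/Fl, while the study's methods give Junb fl/fl and Cd4Cre Junb fl/fl. A Foxp3-driven Cre acts in Foxp3-expressing cells and a Cd4-driven Cre in all T cells that have passed through a CD4-expressing stage, and which of them applies here was not resolved. No JunB library of Junb-deficient cells was analysed here, so loss of JunB binding was not checked. The antibody entry of the labels exchanges BATF and IRF4 between the Junb-sufficient libraries, and the sample titles were used.

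JunB and BATF are basic leucine zipper proteins that pair with each other on AP-1 elements. IRF4 binds DNA weakly alone and is recruited by such pairs at composite elements called AICEs. Helper T cell subsets are defined by the cytokines they release: interferon-γ (Ifng) by Th1 cells, interleukin-4, -5 and -13 (Il4, Il5 and Il13) by Th2 cells, and interleukin-17A and -17F (Il17a and Il17f) by Th17 cells. Interleukin-21 (Il21), interleukin-22 (Il22) and GM-CSF (Csf2) are shared among helper subsets. Treg cells restrain the helper cells that release them. Binding near a gene does not measure its expression.

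The lists held no signal per peak. Every peak carried the score 1, and the only graded information was its place in the list, given here as a percentage from the top. Within a list, peaks stood in blocks in genome order, read here as ties (214 blocks in the JunB list, 350 in the BATF list, 533 and 448 in the IRF4 lists), so neighbouring places have no order. The largest block holding a member was 7.29% of the JunB list, against 1.59% of the BATF list, 1.88% of the Junb-sufficient and 2.39% of the Junb-deficient IRF4 list. Total tags ranged from 21127029 in the Junb-deficient IRF4 library to 27399986 in the JunB library, and the share of tags in peaks from 4.27% (JunB) to 12.76% (IRF4, Junb-sufficient). BATF and Junb-sufficient IRF4 peaks were 613 bp wide and Junb-deficient IRF4 peaks 605 bp, while JunB peaks had the shorter length of the sequences printed here. Near 6 genes that mark Treg cells (Foxp3, Il2ra, Ikzf2, Ctla4, Tnfrsf18 and Cd4), 43 JunB and 17 BATF peaks were found, and 27 IRF4 peaks in each of the IRF4 lists. As binding is not expression, these counts do not establish the makeup of the cells.

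The sequences under JunB peaks are shown first, because AP-1 and AICE elements are what JunB, BATF and IRF4 are known to read. Each locus is represented by its JunB peak highest in the JunB list among those overlapping both BATF and IRF4. The sequences are the plus strand of mm9, in lower case with AP-1 or AICE matches in capitals.
Ifng +36.7 kb, chr10:117914738-117914888: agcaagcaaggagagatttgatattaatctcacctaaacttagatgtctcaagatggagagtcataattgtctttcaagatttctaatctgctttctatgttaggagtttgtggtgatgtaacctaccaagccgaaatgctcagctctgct
Rad50 intron, −22.3 kb of Il13, chr11:53470474-53470624: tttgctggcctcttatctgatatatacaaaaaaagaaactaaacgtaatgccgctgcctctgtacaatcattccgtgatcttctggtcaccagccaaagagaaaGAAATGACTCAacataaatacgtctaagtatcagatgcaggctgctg
Il17a +9.9 kb, chr1:20730827-20730977: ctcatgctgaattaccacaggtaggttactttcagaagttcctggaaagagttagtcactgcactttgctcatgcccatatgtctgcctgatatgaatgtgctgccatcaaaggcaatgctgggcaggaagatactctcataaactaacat
Il22 −26.0 kb, chr10:117615881-117616031: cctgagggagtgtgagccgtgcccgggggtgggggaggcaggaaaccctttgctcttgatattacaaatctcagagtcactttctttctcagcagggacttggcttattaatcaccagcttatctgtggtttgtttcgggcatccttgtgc
Il21 −0.4 kb, chr3:37131882-37132032: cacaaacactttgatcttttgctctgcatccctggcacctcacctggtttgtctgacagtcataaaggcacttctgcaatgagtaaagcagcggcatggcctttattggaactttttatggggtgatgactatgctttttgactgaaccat
Csf2 +22.8 kb, chr11:54040265-54040415: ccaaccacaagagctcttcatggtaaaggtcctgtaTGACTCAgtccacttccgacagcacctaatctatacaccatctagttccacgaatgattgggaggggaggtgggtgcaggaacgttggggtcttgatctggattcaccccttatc

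An AP-1 match is TGACTCA or its reverse complement TGAGTCA, and an AICE match is TGANTCA or TGANTAA with GAAA directly before it or with TTTC ending 4 bases before it, on either strand and up to 100 bp from the peak centre. The elements overlap, since an AICE may contain an AP-1 match. Of the 6 sequences, the one in Rad50 held an AICE match, which also contains the AP-1 match, and the one at Csf2 held an AP-1 match. The other 4 held neither. Among all 31 JunB peaks of the loci, 10 (32.3%, exact 95% interval 16.7–51.4%) held an AP-1 match, against 24.5% of the whole JunB list, and 1 (3.23%, 0.0816–16.7%) held an AICE match, against 3.70%. All intervals cover counting error over peaks only.

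Among the 11 JunB peaks shared with BATF as well as IRF4, 2 (18.2%, 2.28–51.8%) held an AP-1 match, against 42.0% of all such JunB peaks. An AICE match was found in 1 of these 11 (9.09%, 0.230–41.3%), against 7.51%. The whole-list shares lay within each interval. The absence of these letters says nothing about variant elements in the same window.

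Over the 6 loci together, peaks were denser than around genes in general, but not at every member. The windows held 41.0 JunB peaks per Mb, against 13.7 within 50 kb of any annotated TSS of any gene type. The corresponding densities were 22.5 against 6.93 for BATF, 54.2 against 16.2 for Junb-sufficient IRF4 and 66.1 against 15.3 for Junb-deficient IRF4. The Junb-deficient list, which held fewer peaks than the Junb-sufficient list genome-wide, thus held more of them here. For single genes, the share of protein-coding genes with at least as many peaks within 50 kb shows the range. For JunB it ran from 2.80% at Il4 (8 peaks) to 39.0% at Il22 (2 peaks), with Il5 having none. For Junb-sufficient IRF4 it ran from 2.76% at Ifng and Il21 (8 peaks each) to 45.0% at Il17a (3 peaks) and 60.4% at Il22 (2 peaks). In the Junb-deficient list this share was smaller at Il5 (2.27%, against 30.5%), Csf2 (1.16%, against 10.1%) and Ifng (0.648%, against 2.76%). It was also smaller at Il4 (2.27%, against 5.27%), Il13 (4.69%, against 10.1%) and Il22 (43.0%, against 60.4%). There the peak counts were close, with 8 against 7 at Il4, 7 against 6 at Il13 and 3 against 2 at Il22. The share was larger at Il21 (9.20%, against 2.76%) and similar at Il17a (43.0%, against 45.0%) and Il17f (9.20%, against 10.1%). Genes with overlapping windows, such as Il4 and Il13, share peaks, so their values are not separate. The numbers for Il22 are not comparable with those of the other genes, because part of its window recurs near a gene copy, as described below.

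Most peaks were intergenic, with 21 of 31 JunB, 12 of 17 BATF, 31 of 41 Junb-sufficient IRF4 and 36 of 50 Junb-deficient IRF4 peaks outside annotated genes of any type. These counts were not set beside the shares of the whole lists. No JunB or BATF peak was centred in an exon.

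**Figure D1:**
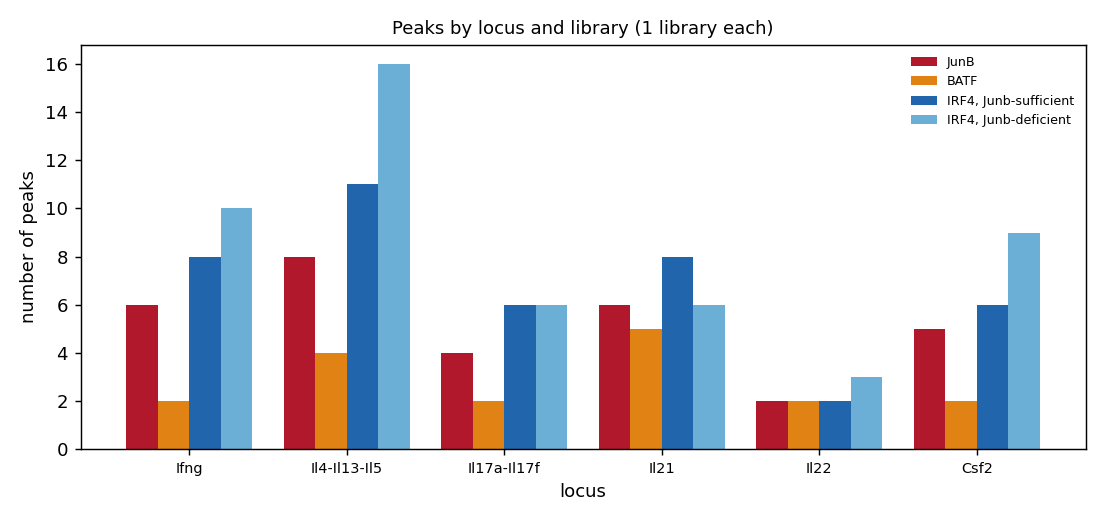
Number of peaks (vertical axis) at each locus for the 4 libraries, 1 library each, with no error bar because there are no replicates. The Junb-deficient IRF4 bar is higher than the Junb-sufficient one at Ifng (10 and 8), Il4-Il13-Il5 (16 and 11), Il22 (3 and 2) and Csf2 (9 and 6), equal at Il17a-Il17f (6 each) and lower at Il21 (6 and 8).

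Co-location of the 3 factors was compared with that over each list, where overlap means at least 1 shared bp. JunB peaks overlapped both BATF and IRF4 at 11 of 31 positions (35.5%, 19.2–54.6%), against 30.1% of the whole list. They overlapped IRF4, with or without BATF, at 19 of 31 (61.3%, 42.2–78.2%), against 42.8%, and neither factor at 12 of 31 (38.7%, 21.8–57.8%), against 54.3%. Seen from BATF, 11 of 17 peaks (64.7%, 38.3–85.8%) overlapped JunB, against 70.7%. Seen from IRF4, 19 of 41 Junb-sufficient peaks (46.3%, 30.7–62.6%) and 17 of 50 Junb-deficient peaks (34.0%, 21.2–48.8%) overlapped JunB, against 40.3% and 35.1%. Each list's share lay within the interval of the loci.

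**Figure D2:**
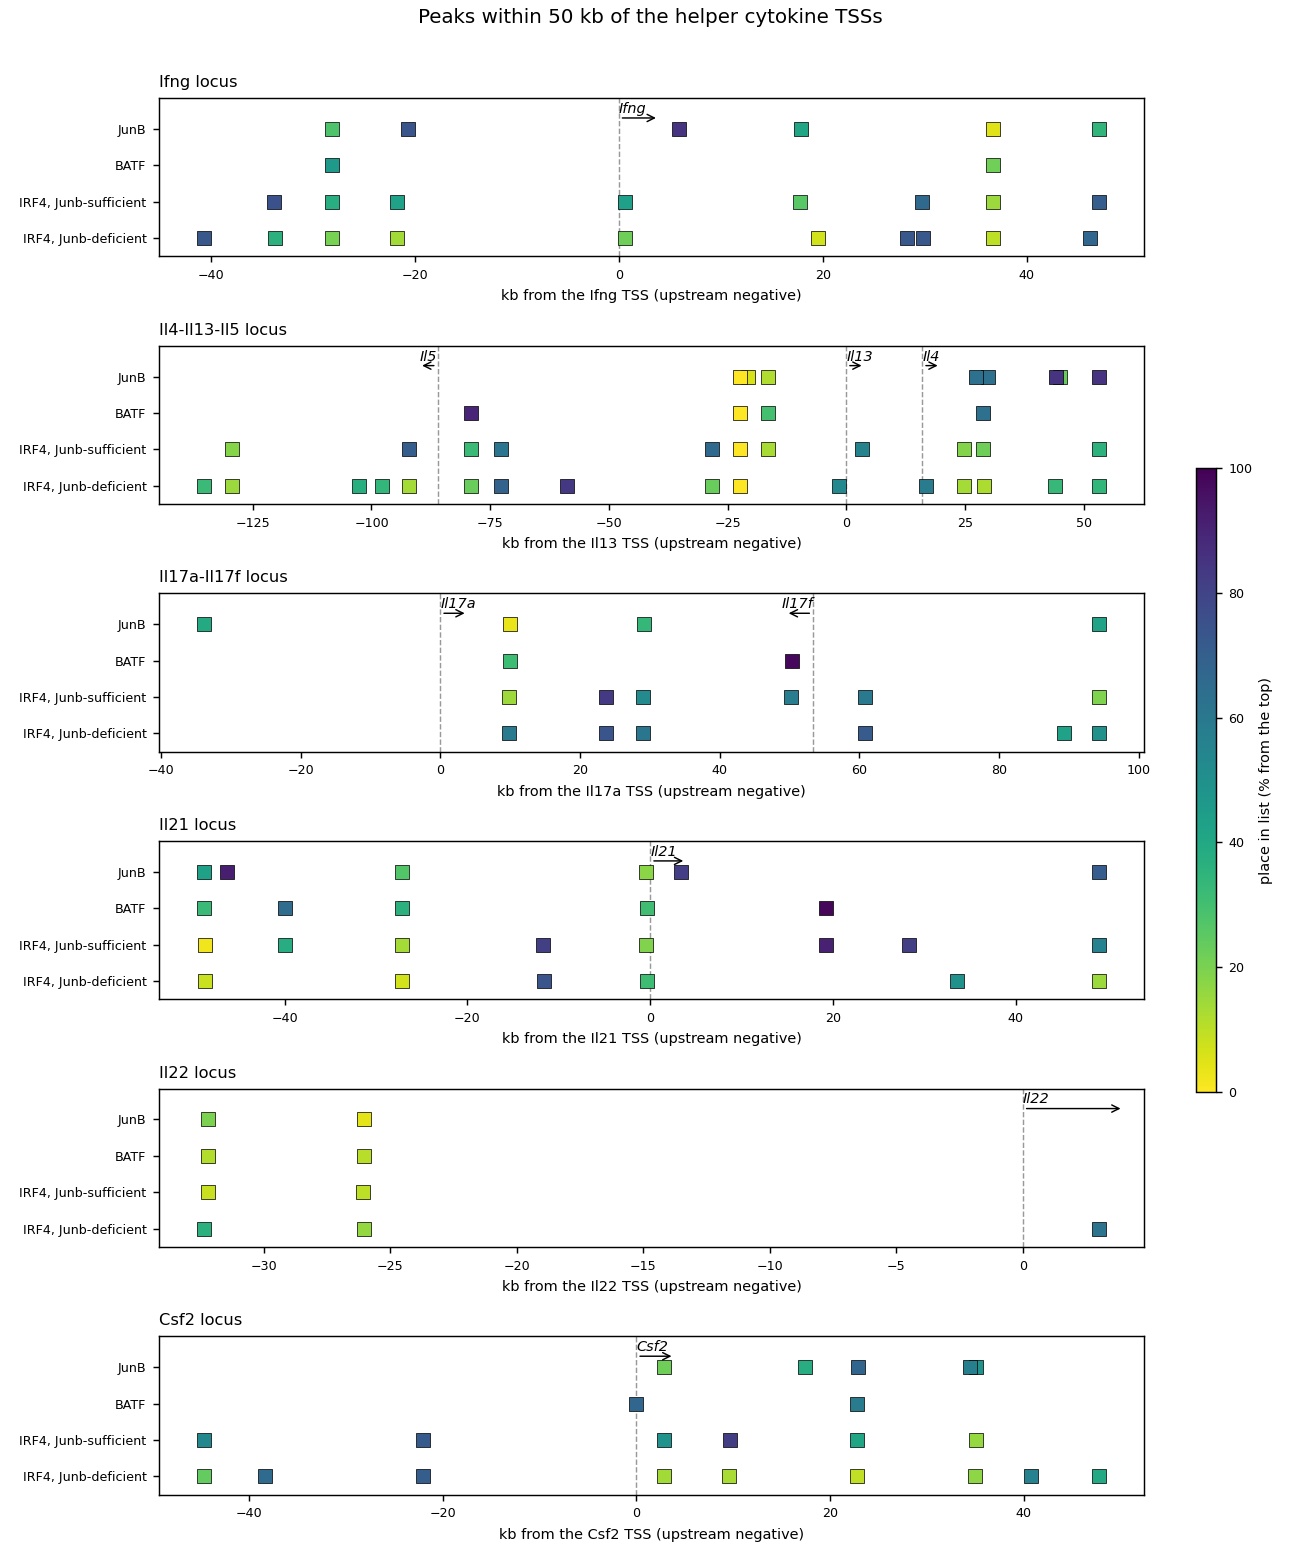
Peaks at the 6 loci, placed by distance in kb from the TSS of the gene named under each panel, with 1 row per library and colour giving the place in the list (yellow at the top, dark at the end). Dashed lines and arrows mark the members' TSSs and direction of transcription. Columns of 4 squares are sites with peaks in every library, such as Ifng +36.7 kb, and the site −22.3 kb from Il13 is the brightest in all 4 rows.

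At Ifng (chr10:117878103-117882948), which encodes the Th1 cytokine that activates macrophages, 6 JunB, 2 BATF, 8 Junb-sufficient IRF4 and 10 Junb-deficient IRF4 peaks were found. The peaks nearest the TSS were IRF4 peaks at +0.6 kb, placed at 43.7% of the Junb-sufficient and 22.1% of the Junb-deficient list, and no JunB or BATF peak overlapped them. The nearest JunB peak lay at +5.9 kb (84.9%) and the nearest BATF peak at −28.1 kb (46.0%). All 3 factors met at 2 intergenic sites. At +36.7 kb the JunB peak stood at 4.78%, BATF at 21.6%, and IRF4 at 15.0% and 9.78% without Junb. At −28.1 kb the places were 28.0% for JunB, 46.0% for BATF, and 37.4% and 20.7% for IRF4. IRF4 was thus kept at both triple sites and stood nearer the top without Junb.

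Ifng also held 2 of the 3 JunB-shared IRF4 peaks of all loci that had no Junb-deficient counterpart. These lay at +17.8 kb, at 25.9% of the Junb-sufficient list, and at +47.1 kb, at 70.4%. In both cases a Junb-deficient IRF4 peak lay close by without touching: 1.75 kb away from the former, at +19.5 kb and 7.03%, and 0.846 kb away from the latter, at +46.3 kb and 67.0%. The former was the highest-placed of all 17 Junb-deficient IRF4 peaks without a Junb-sufficient counterpart. Whether such neighbours are shifted summits or separate sites was not tested. The JunB peak at the +17.8 kb site, with its AP-1 matches in capitals, is shown because its IRF4 peak is the higher placed of the pair.
Ifng +17.9 kb, chr10:117895885-117896035: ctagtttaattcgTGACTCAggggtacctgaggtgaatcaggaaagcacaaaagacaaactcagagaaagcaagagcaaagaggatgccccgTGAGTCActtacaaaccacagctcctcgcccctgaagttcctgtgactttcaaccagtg

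The Th2 cytokine genes lie together on chromosome 11, in the order Il4 (53416484-53432171), Il13 (53444826-53448204), Rad50 and Il5 (53534296-53538608). The introns of Rad50, a DNA repair gene, are known to hold the Th2 locus control region. The locus had 8 JunB, 4 BATF, 11 Junb-sufficient IRF4 and 16 Junb-deficient IRF4 peaks. JunB peaks were confined to the Il4 and Il13 side: 8 lay within 50 kb of Il4, 7 within 50 kb of Il13 and 0 within 50 kb of Il5, whose nearest JunB peak was at −63.7 kb.

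The site in intron 20 of Rad50, −22.3 kb from Il13, was the highest-placed of all loci in every list. It stood at place 93 of the JunB list (0.314%), place 20 of the BATF list (0.147%) and place 41 of the Junb-sufficient IRF4 list (0.132%), and at place 60 of the Junb-deficient IRF4 list (0.207%). It was also the JunB peak with the AICE match, which lay 29 to 39 bp from the peak centre. IRF4 therefore kept its place near the head of the list at the AICE-containing site, with a change of 0.1 percentage points.

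A second triple site, in intron 23 of Rad50 (−16.5 kb from Il13), had JunB at 11.8%, BATF at 29.9% and Junb-sufficient IRF4 at 12.9%, but no Junb-deficient IRF4 peak. It was the single triple site of the 11 without a counterpart, and the nearest Junb-deficient IRF4 peak was 5.85 kb away. Over the whole list, 23.8% of Junb-sufficient IRF4 peaks at JunB, with or without BATF, had no Junb-deficient counterpart. The share over all triple sites is not given here, so the kept sites are only described. The JunB sequence of the intron 23 site, shown for comparison with the kept site in intron 20, held neither an AP-1 nor an AICE match.
Rad50 intron, −16.5 kb of Il13, chr11:53464589-53464739: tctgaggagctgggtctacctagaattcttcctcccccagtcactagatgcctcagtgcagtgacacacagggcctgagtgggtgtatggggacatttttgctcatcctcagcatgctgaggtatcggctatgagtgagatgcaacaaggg

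Within Il4, which encodes the cytokine that directs Th2 differentiation and IgE switching, the Junb-deficient list had an intronic peak at +0.8 kb (58.6%) with no Junb-sufficient counterpart. The nearest Junb-sufficient IRF4 peak was at +8.7 kb (18.6%), kept at 13.3%, and the nearest JunB and BATF peaks were at +11.4 kb (63.1%) and +12.8 kb (62.9%). IRF4 and BATF met without JunB at the latter, where IRF4 went from 22.2% to 12.3%. A JunB peak at +28.2 kb (85.1%) partly overlapped a Junb-deficient IRF4 peak at +27.9 kb (33.0%), which was centred in a coding exon of Kif3a. Of all loci, this was the one Junb-deficient IRF4 peak at JunB that had no Junb-sufficient counterpart.

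Il13, which encodes a mediator of mucus production and airway responses, had its nearest Junb-sufficient IRF4 peak at +3.3 kb (55.3%), in an untranslated exon of the gene, with no Junb-deficient counterpart. The nearest Junb-deficient peak was on the other side of the TSS, at −1.6 kb (52.9%), with no Junb-sufficient counterpart. The nearest JunB and BATF peaks were those in intron 23 of Rad50.

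Il5, which encodes the growth factor of eosinophils, had IRF4 peaks but no JunB peak in its window. Its 4 Junb-sufficient IRF4 peaks all had counterparts, and 4 further peaks were present in the Junb-deficient list only, at +49.2 kb (32.4%), +11.7 kb (34.3%), +16.5 kb (37.1%) and −27.4 kb (83.8%). The IRF4 peak nearest the TSS, at +6.0 kb, stood at 70.4% of the Junb-sufficient and 13.5% of the Junb-deficient list. Of all kept IRF4 peaks that started in the same one of 10 equal parts of the list, 0.601% moved up as far. The single BATF peak was at −7.0 kb (89.7%).

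At Il17a (chr1:20720986-20724577) and Il17f (chr1:20767232-20774351), which encode cytokines that recruit neutrophils, 4 JunB, 2 BATF, 6 Junb-sufficient IRF4 and 6 Junb-deficient IRF4 peaks were found. The peaks nearest the Il17a TSS formed the single triple site of this locus, at +9.9 kb, with JunB at 3.43%, BATF at 31.6% and Junb-sufficient IRF4 at 14.5%. There IRF4 stood at 59.3% of the Junb-deficient list, 44.8 points further down, and 6.17% of all kept peaks from the same part of the list moved down as far. This was the largest move down among kept IRF4 peaks of the 6 loci. A JunB-shared IRF4 peak at −41.0 kb of Il17f likewise went from 19.4% to 49.8%. The IRF4 peak in an intron of Il17f at +3.1 kb (58.0%), which overlapped a BATF peak at 97.9%, had no Junb-deficient counterpart. The nearest JunB peak to the Il17f TSS lay at +24.3 kb (33.4%), and the nearest Junb-deficient IRF4 peak at −7.4 kb (71.5%).

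Il22 (chr10:117641998-117647098) encodes a cytokine that acts on epithelial cells. It had 2 JunB, 2 BATF, 2 Junb-sufficient IRF4 and 3 Junb-deficient IRF4 peaks, and both JunB peaks were triple sites. At −26.0 kb the places were 3.99% for JunB, 10.6% for BATF, and 10.1% and 16.3% for IRF4 with and without Junb. At −32.2 kb they were 19.6% for JunB, 11.5% for BATF, and 8.54% and 36.3% for IRF4, a move down of 27.8 points. The centres of the IRF4 peaks at this second site lay 154 bp apart. IRF4 was kept at both sites and stood further down without Junb.

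The remaining Junb-deficient IRF4 peak lay in an intron of Il22 at +3.0 kb (61.8%) with no Junb-sufficient counterpart. Il22 has a near copy, Iltifb, on the same chromosome, and reads that fit both were not kept by the authors. Of the 50-mers in the 100 kb window of Il22, 39.8% also occurred within 50 kb of Iltifb. The share was 35.4% under the intronic peak, between 15.2% and 15.9% under the peaks at −26.0 kb and 0 under those at −32.2 kb. How far this lowered the number of peaks near Il22 was not tested, and that number is not comparable with those of the other loci.

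Il21 (chr3:37121681-37131540), which encodes a helper cytokine for B cells, had 6 JunB, 5 BATF, 8 Junb-sufficient IRF4 and 6 Junb-deficient IRF4 peaks. It was the single member with peaks of all 3 factors within 1 kb of its TSS. At −0.4 kb JunB stood at 17.3%, BATF at 30.6% and IRF4 at 18.9%, going to 30.9% without Junb. Triple sites also lay at −27.2 kb, with JunB at 27.1%, BATF at 36.3%, and IRF4 at 13.6% and 6.73%, and at −48.8 kb, with JunB at 42.7%, BATF at 32.3%, and IRF4 at 2.05% and 7.99%. All 3 sites kept IRF4. The 3 IRF4 peaks of Il21 without a Junb-deficient counterpart, at −40.0 kb (37.7%), +28.3 kb (81.6%) and +19.2 kb (90.7%), were all off JunB, and those at −40.0 and +19.2 kb overlapped BATF. At +49.1 kb a JunB-shared IRF4 peak went from 55.9% to 14.9%.

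Csf2 (chr11:54060773-54063169), which encodes the growth factor GM-CSF of granulocytes and macrophages, had 5 JunB, 2 BATF, 6 Junb-sufficient IRF4 and 9 Junb-deficient IRF4 peaks. All 6 Junb-sufficient IRF4 peaks had counterparts. At the triple site at +22.8 kb JunB stood at 67.8%, BATF at 58.8% and IRF4 at 40.9%, going to 9.39% without Junb. The JunB-shared IRF4 peak at +2.9 kb, nearest the TSS, went from 48.7% to 13.9% and the IRF4 peak at +9.7 kb, off JunB, from 82.4% to 13.1%. The latter change, −69.3 points, was the largest of all 33 kept peaks of the loci. Of all kept IRF4 peaks from the same part of the list, 0.240% moved up as far, and the corresponding share for the peak at +2.9 kb was 0.742%. Another 3 peaks, at +47.8, +40.7 and −38.3 kb, were in the Junb-deficient list only.

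The Csf2 promoter was the single promoter of the 9 genes on which a BATF peak was centred, −56 bp from the TSS (67.3%), with neither JunB nor IRF4. Its sequence is shown because it also holds an AICE match, in capitals. It runs 5′ to 3′ on the minus strand from 250 bp before to 50 bp after the TSS.
Csf2 promoter, chr11:54063120-54063419: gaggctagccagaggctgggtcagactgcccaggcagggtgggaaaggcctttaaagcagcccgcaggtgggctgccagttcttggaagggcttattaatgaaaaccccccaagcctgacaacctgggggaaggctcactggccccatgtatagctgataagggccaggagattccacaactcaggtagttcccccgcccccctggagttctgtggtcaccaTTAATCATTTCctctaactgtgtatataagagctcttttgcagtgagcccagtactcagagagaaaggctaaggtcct

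Of 32851 promoters of the same 300 bp length, 0.417% held an AICE match and 5.20% an AP-1 match. Among the members, the Il5 promoter also held 1 AICE match, and no peak of any list overlapped it. None of the members' promoters held an AP-1 match.

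Across the loci, IRF4 peaks with and without Junb were compared in both directions. Of 41 Junb-sufficient IRF4 peaks, 8 (19.5%, 8.82–34.9%) had no Junb-deficient counterpart, against 35.0% of the whole list. The whole list's share lay just above this interval. It moves with place in the list, and applying the share of each of 10 equal parts of the list to the members gave 12.5 missing peaks. At JunB peaks 3 of 19 (15.8%, 3.38–39.6%) were missing, against 23.8%, and off JunB 5 of 22 (22.7%, 7.82–45.4%), against 42.5%. With BATF and IRF4 exchanged, as in the antibody entry, 5 of 17 (29.4%, 10.3–56.0%) were missing. The 35.0% above is not the whole-list share for this exchange, which is not given here. A missing peak is one below the caller's thresholds and is not proof of lost binding.

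In the other direction, 17 of 50 Junb-deficient IRF4 peaks (34.0%, 21.2–48.8%) lacked a Junb-sufficient counterpart. This compared with 30.4% of that list, and with 11.5 peaks from the shares of its 10 equal parts. At JunB peaks this was 1 of 17 (5.88%, 0.149–28.7%), against 7.44%, and off JunB 16 of 33 (48.5%, 30.8–66.5%), against 42.7%. Peaks present without Junb only thus lay mostly away from JunB sites, as over the whole list. Of the 17, 7 were at Il4-Il13-Il5, 4 at Ifng, 3 at Csf2 and 1 each at Il17a-Il17f, Il21 and Il22.

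**Figure D3:**
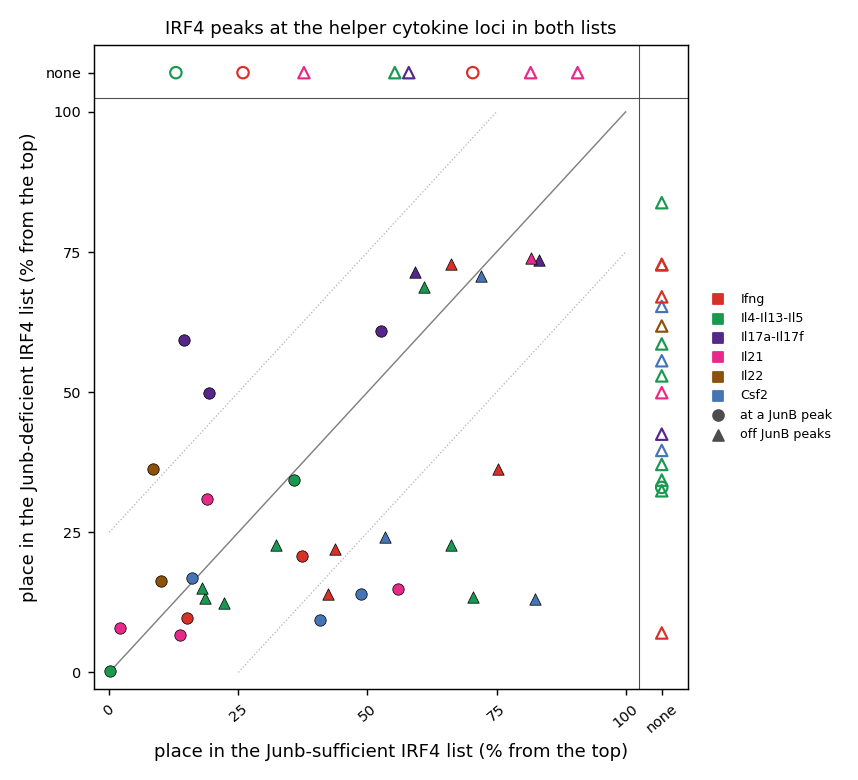
Place of each IRF4 peak in the Junb-sufficient (horizontal) and Junb-deficient (vertical) list, as % from the top, by locus (colour), with circles at JunB peaks and triangles off them. Open symbols beyond the lines are peaks without a counterpart, 8 above and 17 to the right. Points below the diagonal stand nearer the top without Junb, and dotted lines mark a change of 25 points.

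Of the 33 kept pairs, 21 (63.6%) stood nearer the top of the Junb-deficient list and 12 further down. Over all 20218 kept IRF4 peaks 48.6% stood nearer the top, and the shares of 10 equal parts of the list gave 15.8 of 33 pairs. The median change was −5.3 points (−69.3 to 44.8), against 0.3 over all kept peaks. A change of at least 25 points, a size chosen after the values were seen, was used to count large moves. Large moves towards the top were made by 9 of 33 (27.3%, 13.3–45.5%), against 8.46% of all kept peaks, and against 2.73 peaks from the shares of the 10 parts. Large moves down were made by 3 of 33 (9.09%, 1.92–24.3%), against 11.5% and 3.89 peaks. As the size was chosen on these values, the intervals are a description and support no difference from the whole list. With 1 library per genotype, this compares 2 libraries and not the genotypes.

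The loci differed in direction. Large upward moves were at Csf2 (4), Ifng (2), Il4-Il13-Il5 (2) and Il21 (1), and the 3 large downward moves at Il17a-Il17f (2) and Il22 (1). The median change was −30.3 points at Csf2 (6 pairs), −19.1 at Ifng (6), −6.9 at Il21 (5), −5.3 at Il4-Il13-Il5 (9), 12.2 at Il17a-Il17f (5) and 17.0 at Il22 (2). The difference between loci was not tested, since pairs of a locus share a region and a library. These counts and medians are also not adjusted for starting place in the Junb-sufficient list. The large downward moves started at 8.54% (Il22), 14.5% and 19.4% (Il17a-Il17f), and the other Il22 pair at 10.1%. From there no large upward move was possible. The large upward moves started between 40.9% and 82.4%. The other Il17a-Il17f pairs, from 52.7%, 59.2% and 83.3%, changed by 8.2, 12.2 and −9.6 points.

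Off JunB peaks, 14 of 17 pairs (82.4%) moved up, with a median of −9.6 points. Over all kept IRF4 peaks off JunB 57.3% moved up, with a median of −3.2 points. At JunB peaks 7 of 16 pairs (43.8%) moved up, with a median of 0.4 points, against 38.9% and 2.2 points over all kept IRF4 peaks at JunB. These shares and medians are not adjusted for starting place, and a peak low in the list has more room to move up. All 3 large downward moves were at JunB peaks, as were 1423 of the 2318 over the whole list. Large upward moves were mostly off JunB there too, with 311 of 1711 at JunB peaks. At the loci they were at JunB in 3 cases (Csf2 +22.8 and +2.9 kb, Il21 +49.1 kb) and off JunB in 6, which besides Csf2 +9.7 kb and Il5 +6.0 kb were Csf2 −44.6 kb (53.4% to 24.2%), Ifng −33.8 kb (75.3% to 36.3%), Ifng −21.7 kb (42.3% to 14.0%) and the Rad50 intron at −28.3 kb of Il13 (66.1% to 22.7%).

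**Figure D4:**
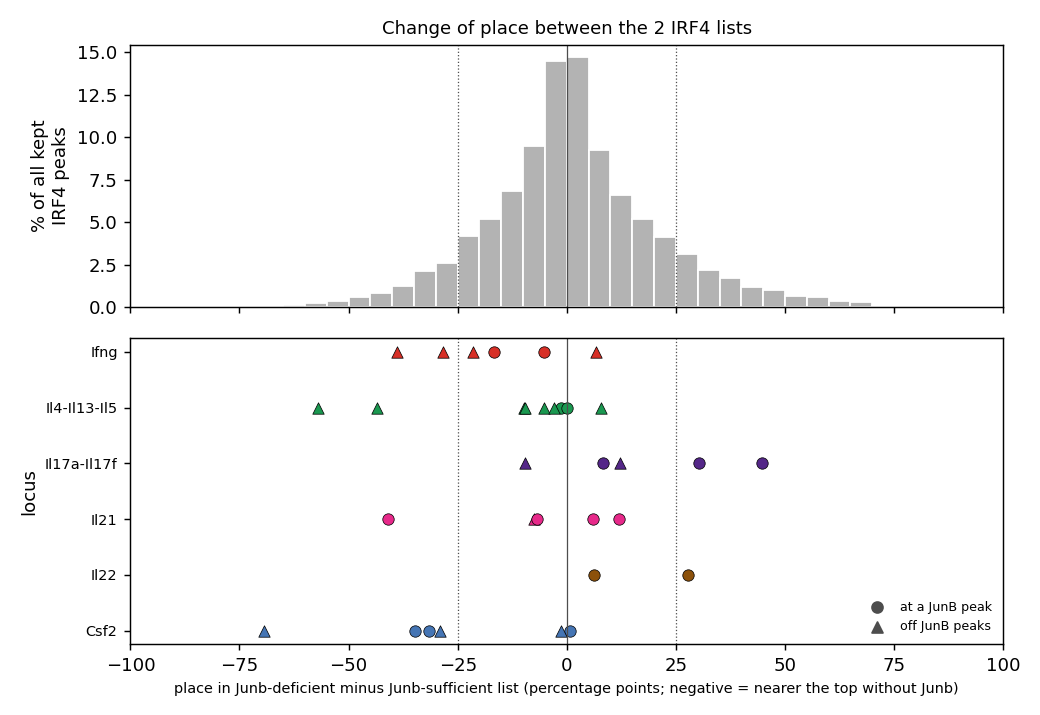
Change of place from the Junb-sufficient to the Junb-deficient IRF4 list in percentage points (horizontal), negative towards the top. The upper panel gives the share of all 20218 kept IRF4 peaks in bins of 5 points, and the lower panel each of the 33 kept pairs by locus, with circles at JunB peaks and triangles off them. Csf2 and Ifng pairs lie mostly left of 0, and 4 of 5 Il17a-Il17f and both Il22 pairs right of it.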

How the data were processed

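JunB, BATF and IRF4 ChIP-seq was read from 4 peak lists, each from a single library. Alignment to mm9 was done by the authors in Bowtie2. They kept uniquely placed reads and called peaks in each library with HOMER (version 4.8 in the submitters' processing notes), using a false discovery rate of 0.001, a fold of 4 over the 10 kb around, 1 tag per bp and no control. The deposited score was 1 in every row and was not used. Positions were counted from 1. TSSs and annotation came from GENCODE on the same assembly, and no peak lay beyond a chromosome end. Shares were given exact Clopper-Pearson 95% intervals beside the share of the whole list. Kept peaks are pairs that overlap by at least 1 bp. Python 3.11.15, NumPy 2.4.6, SciPy 1.17.1 and matplotlib 3.10.9 were used, and procedures were tested on simulated data. The members and gene lists were chosen with earlier results of these data known, and some comparison lists are not reported here. Named peaks are the nearest of each list to each TSS, all JunB-BATF-IRF4 sites, JunB-shared IRF4 peaks present in 1 genotype only, and large changes of place, the last chosen after their values were seen.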

Additional observations from a re-analysis of the deposited data

How the results depend on the processing

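No paired analysis was possible because each condition had 1 library, and no replicate could be left out. With windows of 20 kb the loci held 10 JunB, 8 BATF, 17 Junb-sufficient IRF4 and 18 Junb-deficient IRF4 peaks. With windows of 100 kb they held 46 JunB, 26 BATF, 64 Junb-sufficient IRF4 and 73 Junb-deficient IRF4 peaks. The first 50% of each list held 20, 10, 23 and 33 in the same order. The shares of peaks overlapping, missing or holding a motif stayed within the counting interval of the value reported under every alternative run. The share of Junb-sufficient IRF4 peaks without a counterpart ran from 13.0% to 29.4%, and that of Junb-deficient ones from 24.2% to 42.4%. The 13.0% and 24.2% came from the first 50% of the counted list. In the equal parts of the whole list that this covers, the share rose from 5.05% to 30.6% (Junb-sufficient) and from 4.24% to 26.7% (Junb-deficient). The whole-list shares for the other restricted or exchanged lists are not given here. For the Junb-sufficient peaks, the whole-list share of 35.0% lay just above the interval at 50 kb. It lay within the interval with windows of 20 kb (29.4%, 10.3–56.0%) and of 100 kb (26.6%, 16.3–39.1%). The counts of large moves, 9 and 3 of 33, were the same with places taken at the middle of each block. The first 50% of the counted list alone and the middle of the block were alternatives chosen after seeing the data. The lists hold no depth per peak, so a peak just below a threshold cannot be told apart from an absent one.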

Other observations

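Other T cell cytokines (Il2, Il3, Il9, Il10, Il24, Il6, Tnf, Lta, Ltb, Tnfsf11, Areg, Tgfb1, Ebi3 and Il12a) had 42 JunB, 25 BATF, 56 Junb-sufficient IRF4 and 49 Junb-deficient IRF4 peaks near 14 genes. Without a counterpart were 32.1% of the Junb-sufficient and 22.4% of the Junb-deficient IRF4 peaks, against 35.0% and 30.4% of the whole lists. Of 38 kept pairs, 5 moved at least 25 points towards the top without Junb and 1 moved down as far. Over all kept peaks, 8.46% moved up and 11.5% moved down as far. Of the 5 upward moves, 4 lay near Il3, whose window shares peaks with that of its neighbour Csf2.

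Treg suppressive mediators (Ctla4, Il10, Ebi3, Il12a, Tgfb1, Fgl2, Nt5e, Entpd1, Lag3 and Gzmb) had 49 JunB, 29 BATF, 61 Junb-sufficient IRF4 and 54 Junb-deficient IRF4 peaks near 10 genes. Without a counterpart were 23.0% of the Junb-sufficient and 13.0% of the Junb-deficient IRF4 peaks, against the same whole-list shares. Of 47 kept pairs, 1 moved up and 7 moved down by at least 25 points, against 8.46% and 11.5% of all kept peaks. The median change was 0.4 points. Il10, Ebi3, Il12a and Tgfb1 are also among the other T cell cytokines. The differences between these lists were not tested.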
